A study of Mus musculus with 2 samples.

Results

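The replication-dependent histone genes of the mouse lie mostly in gene clusters, and 3 windows named for those clusters were examined in the ELF3 and NFKB2 region lists of a CUT&RUN experiment. The windows span 430 kb (chr13:21850-22280 kb) and 440 kb (chr13:23560-24000 kb) on chromosome 13 and 440 kb (chr3:96080-96520 kb) on chromosome 3, in the coordinates of the deposited lists. Every listed region that overlaps a window was taken, which gave 142 of 82536 regions. ELF3 accounted for 102 of these, from a list of 68319, and NFKB2 for 40, from a list of 14217. The windows had been chosen by the width, cover and fragment numbers of their ELF3 regions, so these ELF3 values are described and not tested. They are called here the first and second chromosome 13 clusters, with 29 ELF3 and 8 NFKB2 regions and with 26 ELF3 and 19 NFKB2 regions, and the chromosome 3 cluster, with 47 ELF3 and 13 NFKB2 regions.

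In CUT&RUN a nuclease is carried by an antibody to chromatin, and the DNA it releases is sequenced. The 2 libraries, 1 per antibody, came from primary tubular epithelial cells of wild-type mouse kidney that had received TNFα and IFNγ, a pair of inflammatory cytokines, and both carry the label batch 1. No library without the cytokines was analysed here, so nothing below compares treated with untreated cells. The design text mentions an IgG control, which was not analysed here. With 1 library per antibody there is no replicate error and no test. Every interval given is an exact 95% interval that covers counting error only. The cell type was not checked against its marker genes, because the regions could not be placed on genes.

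Histone genes of this kind are transcribed strongly in S phase, when new DNA has to be packed into nucleosomes. Their short transcripts lack introns and end in a stem-loop in place of a poly(A) tail, and the clusters gather at the histone locus body, a nuclear structure organised by NPAT. H2A, H2B, H3 and H4 form the nucleosome core, and H1 binds the linker DNA between nucleosomes. ELF3, found mainly in epithelia, belongs to the ETS transcription factors, which bind sites with a GGAA core. NFKB2 encodes p100, which is processed to the DNA-binding protein p52 in non-canonical NF-κB signalling.

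The names and order of the genes were taken from a RefSeq gene table of GRCm38.p6, while the deposited lists hold sequence names of GRCm39. No region was therefore placed on a gene, and the identity of the windows rests on how they were chosen. How much of each window its histone genes fill was not determined, so a region in a window need not lie at a histone gene. In that table the first run of histone genes on chromosome 13 holds 24, from H2bc13 to H2bc11. They are 8 H2A, with the pseudogene H2ac14 among these, 8 H2B, 5 H4, 2 H3 and 1 H1 gene. The zinc finger gene Zfp184, Pom121l2, the protease gene Prss16 and 31 tRNA genes lie among them. The second run holds 31, from H4c8 to H2ac1, with 7 H2B, 7 H3, 6 H2A, 6 H4 and 5 H1 genes. Among these lie Hfe, a regulator of iron uptake, Trim38, and the solute carriers Slc17a1, Slc17a2, Slc17a3 and Slc17a4, with 0 tRNA genes. The chromosome 3 run is the smallest, with 10 histone genes from H2ac21 to H2bc18 (4 H2A, 3 H3, 2 H2B and 1 H4) and no other protein-coding gene between them.

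The 150 bases before the start of 1 gene of each histone class are shown to illustrate what these clusters hold, each being the first gene of its class, in table order, with an entry among the RefSeq sequences. They are written 5′ to 3′ along the gene, with CCAAT and TATAAA in capitals on either strand (ATTGG and TTTATA on the other). Positions are those of GRCm38.p6 and cannot be set beside the region positions given below.
H1f5 (chr13:21780626-21780775, minus strand): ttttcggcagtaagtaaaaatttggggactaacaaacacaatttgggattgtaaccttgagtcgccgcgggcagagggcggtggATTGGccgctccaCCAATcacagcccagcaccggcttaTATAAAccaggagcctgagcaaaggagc
H2ac13 (chr13:21716262-21716411, plus strand): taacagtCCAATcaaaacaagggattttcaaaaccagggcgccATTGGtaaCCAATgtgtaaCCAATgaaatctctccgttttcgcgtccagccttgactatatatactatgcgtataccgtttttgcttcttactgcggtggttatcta
H2bc13 (chr13:21716184-21716333, minus strand): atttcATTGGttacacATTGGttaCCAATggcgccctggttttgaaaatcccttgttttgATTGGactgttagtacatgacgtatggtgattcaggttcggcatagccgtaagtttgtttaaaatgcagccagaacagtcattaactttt
H3c10 (chr13:21717478-21717627, plus strand): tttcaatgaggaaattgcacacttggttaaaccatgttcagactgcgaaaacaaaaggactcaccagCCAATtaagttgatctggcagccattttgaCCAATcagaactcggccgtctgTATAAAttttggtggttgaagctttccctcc
H4c11 (chr13:21734884-21735033, plus strand): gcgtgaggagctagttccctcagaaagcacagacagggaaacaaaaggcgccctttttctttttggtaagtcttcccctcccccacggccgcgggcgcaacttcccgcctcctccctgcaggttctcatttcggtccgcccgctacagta
The H2ac13 and H2bc13 stretches share 72 bases on opposite strands, since these genes face away from each other. CCAAT was found 4 times before H2ac13, 2 times before H1f5, 2 times before H3c10 and 0 times before H4c11. TATAAA was found 1 time before H1f5 and 1 time before H3c10. The letters CCGGAA, which hold the ETS core, and a κB pattern (GGG, then any 5 bases, then CC) were found 0 times in the 5 stretches on either strand. The core GGAA alone does stand in the H3c10 and H4c11 stretches, and it was not counted here or in the larger set below.

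Of the 65 histone genes in the 3 runs, 59 matched an entry of the promoter table by gene identifier. In the 250 bases before the start, CCAAT on either strand was found in 49 of the 59 (83.05%), against 34.46% of all 27025 genes with an entry. TATAAA was found in 28 (47.46%), against 12.97%. CCGGAA was found in 1 (1.695%), against 12.22%, and the κB pattern in 14 (23.73%), against 45.37%. Genes that face away from each other can share these stretches, so the 59 are not independent. A match is a run of letters and not a bound site, and no match says only that these letters are not in this window.

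The summit of each region, its highest point, is given as the number of fragments that lie over it, recovered from the deposited scores. Recovered depth was 10.1 fragments per kb of genome for ELF3 and 10.6 for NFKB2, taking the genome length that the authors' peak caller assumed. The recovered depths differed by a factor of 1.04, which was divided out of every ratio of NFKB2 to ELF3 fragments. The lowest local background, called the floor, was 1.22 fragments for ELF3 and 1.36 for NFKB2. Within the clusters it was found at 72 of 102 regions for ELF3 and at 26 of 40 for NFKB2, and the highest background was 4.06 times the floor for ELF3 and 2.29 times for NFKB2. A region at the floor needed at least 6 fragments to be listed for ELF3 and 8 for NFKB2.

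ELF3 regions covered long stretches of both chromosome 13 clusters and a smaller share of the chromosome 3 cluster. They took up 266.5 kb (62.0%) of the first window, 323.5 kb (73.5%) of the second and 96.4 kb (21.9%) of that on chromosome 3. NFKB2 regions covered 3.72 kb (0.865%), 12.97 kb (2.95%) and 11.4 kb (2.59%). ELF3 regions of 10 kb or more made up 0.0439% of the whole list (30 regions), and 17 of those 30 lie in the clusters, with 7, 7 and 3 per cluster. The 9 such regions elsewhere on the autosomes and X were at most 30848 bp wide. ELF3 regions with 100 or more fragments at the summit made up 1.32% of the list (900), of which 21 lie in the clusters, with 9, 7 and 5 per cluster.

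**Figure D1:**
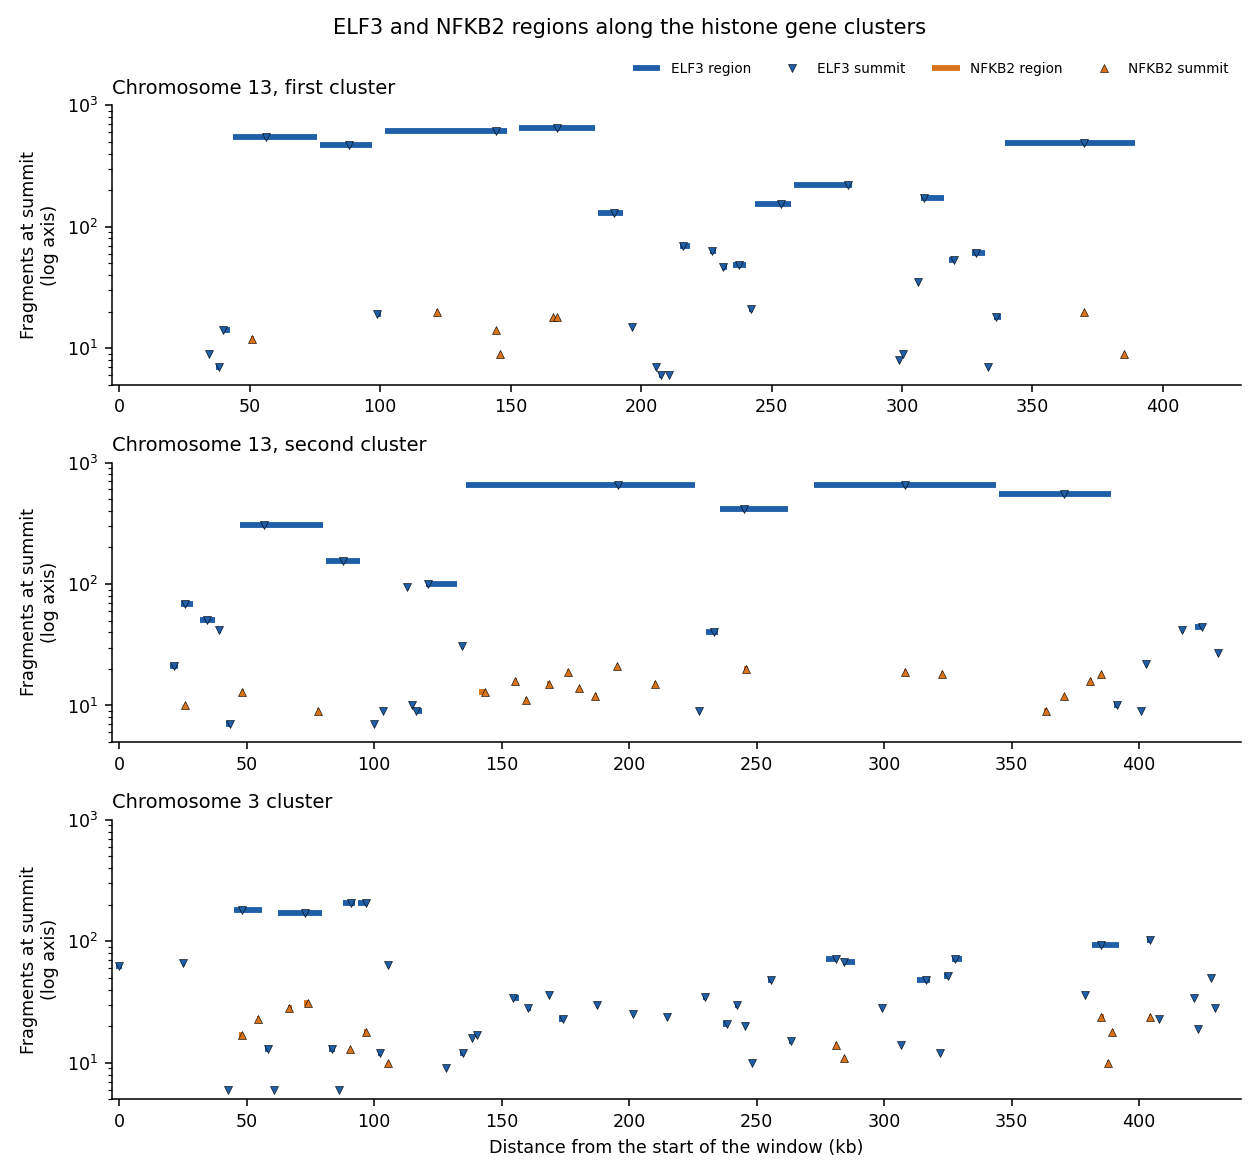
The map gives the place of each region along the 3 windows (x axis, kb from the window start) and the fragments at its summit (y axis, log scale), with bars for region widths and triangles for summits in blue (ELF3) and orange (NFKB2). Wide ELF3 bars of 100 to 657 fragments fill much of both chromosome 13 clusters, while all NFKB2 summits lie between 9 and 31 fragments.

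In the first chromosome 13 cluster ELF3 lay in a left block, a weaker middle and a right block. The left block held 4 wide regions: chr13:21893504-21925574 with 543 fragments (498 to 591), chr13:21926733-21946710 with 475 (433 to 520), chr13:21951933-21998503 with 613 (565 to 664) and chr13:22003263-22032362 with 656 (607 to 708). A narrow region, chr13:21948571-21950286 with 19 fragments, lay after the second of them. A region of 130 fragments and 9532 bp followed at chr13:22033452-22042983. The middle held small regions of 6 to 70 fragments and then a pair of wide ones, chr13:22093803-22107520 with 153 fragments and chr13:22108773-22130864 with 219. The widest gap of this cluster, 17.8 kb, came next, before a region of 173 fragments at chr13:22157167-22166160. The right block was a single region of 49707 bp, chr13:22189498-22239204, with 486 fragments (444 to 531), which was also the last ELF3 region of the window.

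NFKB2 in this cluster lay in both outer blocks and was not listed between them. Its 8 regions held 9 to 20 fragments, with a median of 16, which equals the median of the whole NFKB2 list. The region chr13:21900470-21901779 with 12 fragments lay in the first wide ELF3 region, 5210 bp from its summit. Of the 3 NFKB2 regions in the third wide ELF3 region, chr13:21994281-21994558 with 14 fragments had its summit 61 bp from the ELF3 summit, chr13:21995846-21996353 with 9 fragments lay 1362 bp away and chr13:21971469-21971730 with 20 fragments lay 22921 bp away. The strongest ELF3 region of this cluster held 2 NFKB2 regions of 18 fragments each, chr13:22017606-22018145 at 30 bp and chr13:22016241-22016464 at 1416 bp from its summit. In the right block, chr13:22219807-22220225 with 20 fragments lay 11 bp from the ELF3 summit and chr13:22235141-22235317 with 9 fragments lay 15349 bp from it.

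From chr13:22018146 to 22219806, a stretch of 201.661 kb, the NFKB2 list had no region, although 63.3% of that stretch was covered by ELF3. It contained 20 complete ELF3 regions, 4 of them with 100 or more fragments and 2 of 10 kb or more, and the strongest had 219 fragments. The second wide region of the left block, with 475 fragments over 19978 bp, also held no NFKB2 region and lay in an NFKB2-free stretch of 69.7 kb with 93.3% ELF3 cover. All 4 ELF3 regions with NFKB2 had 486 or more fragments, and the 20 regions with fewer than 100 fragments held none (0 to 16.8%).

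In the second chromosome 13 cluster the strongest ELF3 signal ran from the middle of the window rightward. The summits of its regions lay from 195.5 to 370.6 kb after the window start. The widest ELF3 region of the whole list, chr13:23696207-23785875, spanned 89669 bp with 649 fragments (600.02 to 701) at its summit. It was followed by chr13:23795818-23822341 with 415 fragments, chr13:23832405-23903822 with 657 (608 to 709) over 71418 bp, and chr13:23904864-23949068 with 549 over 44205 bp. The left part had 1 region of 306 fragments, chr13:23607562-23639957, and 2 weaker wide ones of 154 and 100 fragments, chr13:23641050-23654454 and chr13:23680509-23692429. After the last wide region ELF3 was listed in 6 narrow regions of 9 to 44 fragments up to the end of the window.

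NFKB2 was listed most often in this cluster, with 19 regions of 9 to 21 fragments and a median of 15. The widest ELF3 region contained 9 of them, spaced over most of its length. Their fragment numbers in order were 13, 16, 11, 15, 19, 14, 12, 21 and 15. The highest of these, chr13:23755243-23755618, lay 92 bp from the ELF3 summit, while the leftmost, chr13:23701157-23703329, lay 52172 bp away, the largest such distance in the 3 clusters. The gaps between these 9 neighbours ranged from 3.277 to 14.21 kb. The region of 549 ELF3 fragments held 4 NFKB2 regions with 9, 12, 16 and 18 fragments, and the second of them, chr13:23930432-23930783, lay 23 bp from the ELF3 summit. The region of 657 fragments held 2, of which chr13:23867625-23868447 with 19 fragments lay 25 bp from the summit and chr13:23882376-23882604 with 18 lay 14427 bp from it. The region of 415 fragments held chr13:23805122-23806577 with 20 fragments, 534 bp from the summit. The region of 306 fragments held 2 near its ends, chr13:23608099-23608870 with 13 and chr13:23637758-23637965 with 9. The NFKB2 region chr13:23585947-23586366 with 10 fragments lay in an ELF3 region of 68 fragments and 4708 bp, 6 bp from its summit, and was the only NFKB2 region of this cluster outside a wide ELF3 region.

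The longest stretch of the second cluster without NFKB2, 63.2 kb from chr13:23637966 to 23701156, contained both weaker wide ELF3 regions. A stretch of 61.0 kb from chr13:23806578 to 23867624 was 83.5% covered by ELF3 and a stretch of 40.2 kb from chr13:23882605 to 23922806 was 97.4% covered, and neither had an NFKB2 region. Of the 44 bins of 10 kb in this window, 21 were wholly covered by ELF3 and 16 held an NFKB2 summit. The first cluster had 14 wholly covered bins of 43, and 6 bins with an NFKB2 summit. The chromosome 3 window had 0 wholly covered bins of 44, and 9 with an NFKB2 summit. Of the 35 wholly covered bins in the 3 windows, 16 held an NFKB2 summit.

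The chromosome 3 cluster had shorter and weaker ELF3 regions in 3 groups. The left group held chr3:96124928-96136127 with 181 fragments (11200 bp), chr3:96142411-96159657 with 171 (17247 bp), chr3:96167719-96172502 with 207 (4784 bp) and chr3:96173812-96177680 with 208 (181 to 238; 3869 bp). The middle held short regions of 9 to 72 fragments, of which chr3:96357064-96361342 with 72 fragments was the highest. After a gap of 48.0 kb, the longest in any of the 3 windows, the right group held chr3:96461623-96472198 with 93 fragments (10576 bp) and chr3:96482938-96484668 with 102. ELF3 regions here had a median width of 731 bp, against 2279 and 2208.5 bp in the chromosome 13 clusters and 418 bp in the whole list.

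NFKB2 on chromosome 3 was listed on each of the 5 ELF3 regions with 100 or more fragments. The left group held 7 NFKB2 regions. The summit of chr3:96127010-96128465, with 17 fragments, fell on the same base as the ELF3 summit of 181 fragments. The region chr3:96175866-96177083 with 18 fragments lay 2 bp from the summit of 208 fragments, and chr3:96170355-96170800 with 13 lay 59 bp from that of 207. The ELF3 region of 171 fragments held 2, and chr3:96152491-96154436 had the most fragments of any NFKB2 region in the clusters, 31 (1094 bp from the ELF3 summit). The other, chr3:96146005-96147860 with 28, lay 6194 bp from that summit. The region chr3:96134162-96134758 with 23 lay 5950 bp from the summit of 181 fragments, and chr3:96185382-96185551 with 10 lay 98 bp from a summit of 64. In the right group chr3:96465097-96466198 and chr3:96483708-96484359, with 24 fragments each, lay 4 and 15 bp from their ELF3 summits. The ELF3 region of 93 fragments also held chr3:96467562-96468156 with 10 and chr3:96469266-96470224 with 18, at 2625 and 4352 bp from its summit. A pair of NFKB2 regions with 14 and 11 fragments lay in the middle, at 37 and 17 bp from ELF3 summits of 72 and 67 fragments. On either side of that pair, NFKB2-free stretches of 175.3 and 100.7 kb were 11.2% and 19.6% covered by ELF3.

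All 40 NFKB2 regions overlapped an ELF3 region (100%, 91.2 to 100%), and all 40 lay wholly inside one. In the whole list 96.8% of NFKB2 regions overlap an ELF3 region, so this share was near the background. None of the 99 gaps between ELF3 regions in the windows held an NFKB2 region. Seen from ELF3, 20 of 102 regions held an NFKB2 region (19.6%, 12.4 to 28.6%), against 19.7% of the whole ELF3 list. The shares were 4 of 29 (13.8%), 6 of 26 (23.1%) and 10 of 47 (21.3%) in the 3 clusters. On chromosome 3, 1 of the 10 counts through an NFKB2 region just outside the window: chr3:96078604-96081149 with 62 ELF3 fragments crosses the window limit, and its NFKB2 region chr3:96079553-96079881 with 19 fragments ends 0.119 kb before that limit.

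On chromosome 13 most NFKB2 summits lay away from the listed ELF3 summit. In the 3 clusters together, an NFKB2 summit lay within 100 bp of an ELF3 summit for 15 of 40 regions (37.5%, 22.7 to 54.2%), against 73.2% of the whole NFKB2 list. The share was 3 of 8 and 4 of 19 on chromosome 13 and 8 of 13 (61.5%, 31.6 to 86.1%) on chromosome 3, an interval that includes the background. From the ELF3 side, 16 of 102 summits (15.7%) had an NFKB2 summit within 100 bp, against 15.2% of the whole list. The distance from an NFKB2 summit to the summit of its own ELF3 region had a median of 1389 bp in the first cluster, 14427 bp in the second and 59 bp on chromosome 3. Of the 40, 24 were more than 1000 bp away. Each ELF3 region has a single listed summit however wide it is, and 33 of the 40 NFKB2 regions lay in 12 of the 17 ELF3 regions of 10 kb or more. Distances over 100 bp occurred only in ELF3 regions of 10 kb or more, and in those 8 of 33 NFKB2 summits lay within 100 bp. Width was among the values that chose the windows, and its part in the share of 37.5% was not tested.

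**Figure D2:**
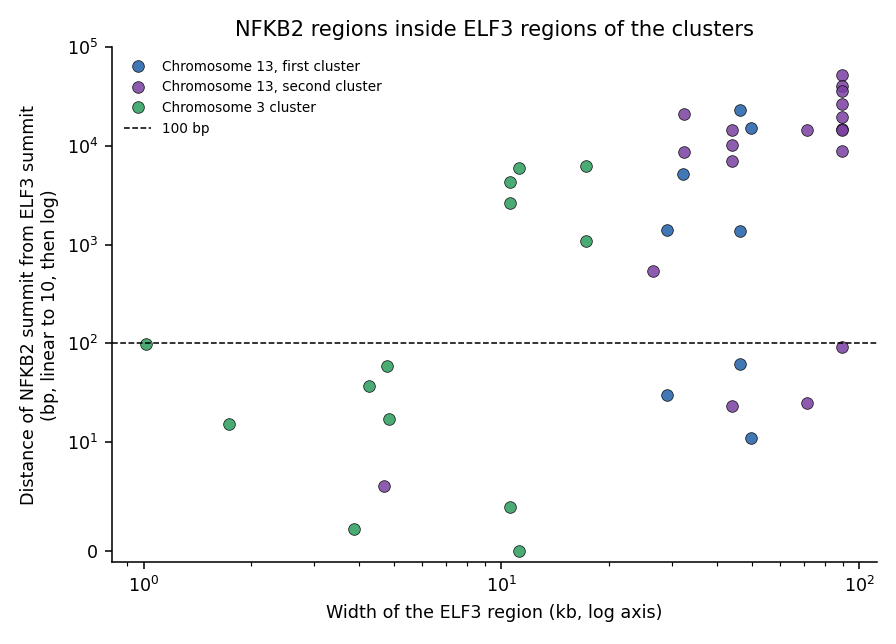
Each of the 40 NFKB2 regions is plotted by the width of the ELF3 region around it (x axis, kb, log scale) and the distance between both summits (y axis, bp, linear up to 10 and logarithmic above), coloured by cluster, with a dashed line at 100 bp. The 7 points in ELF3 regions under 10 kb lie below the line, and the points in wider regions run from 0 to 52172 bp.

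NFKB2 had few fragments for the ELF3 signal at these places. In the 15 pairs with coinciding summits, where both values refer to nearly the same place, the ratio of NFKB2 to ELF3 fragments had a median of 0.0829 and ran from 0.0209 to 0.247. In the 10370 such pairs outside the clusters the median was 0.383, with quartiles of 0.271 and 0.554. The median was 0.0263 in the first cluster (3 pairs), 0.0293 in the second (4 pairs) and 0.153 on chromosome 3 (8 pairs). NFKB2 exceeded ELF3 in 0 of the 15 pairs and in 577 of the 10370 outside. A ratio under 0.1 was found in 9 of the 15 and in 20 of the 10370. The ELF3 values helped to choose the windows, so a low ratio is in part fixed by that choice. The NFKB2 values were not used by it, and at the 15 summits NFKB2 had a median of 17 fragments, as it did at the 10370 outside, while ELF3 had a median of 207 against 46.

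Single pairs show the counting error. At the strongest coinciding ELF3 summits of each chromosome 13 cluster, 18 NFKB2 fragments faced 656 ELF3 fragments, a ratio of 0.0263 (0.0155 to 0.0419), and 19 faced 657, a ratio of 0.0277 (0.0166 to 0.0436). Among NFKB2 regions inside the windows, the highest ratio was 0.247 (0.151 to 0.390), at chr3:96465097-96466198 with 24 against 93 fragments. Next came chr3:96483708-96484359 with 24 against 102 and a ratio of 0.225 (0.138 to 0.354). NFKB2 had 18 to 24 fragments in these 4 pairs, so their ratios differ mainly through the ELF3 values. The ELF3 region that crosses the chromosome 3 limit had a higher ratio, 0.293, with its NFKB2 region just outside the window. The exception on chromosome 13 was chr13:23585947-23586366, with 10 against 68 fragments and a ratio of 0.141 (0.0646 to 0.275), in a narrower ELF3 region. Over all 40 NFKB2 regions, each set against the summit of its own ELF3 region, a ratio under 0.1 was found in 29, with 8 of 8, 18 of 19 and 3 of 13 per cluster. Outside the clusters it was found in 31 of 13704 overlapping pairs (0.226%). The whole list, clusters included, had it in 0.436% of 13769. For the 25 regions whose summits do not coincide this ratio joins values from different places and describes the region, not a site.

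**Figure D3:**
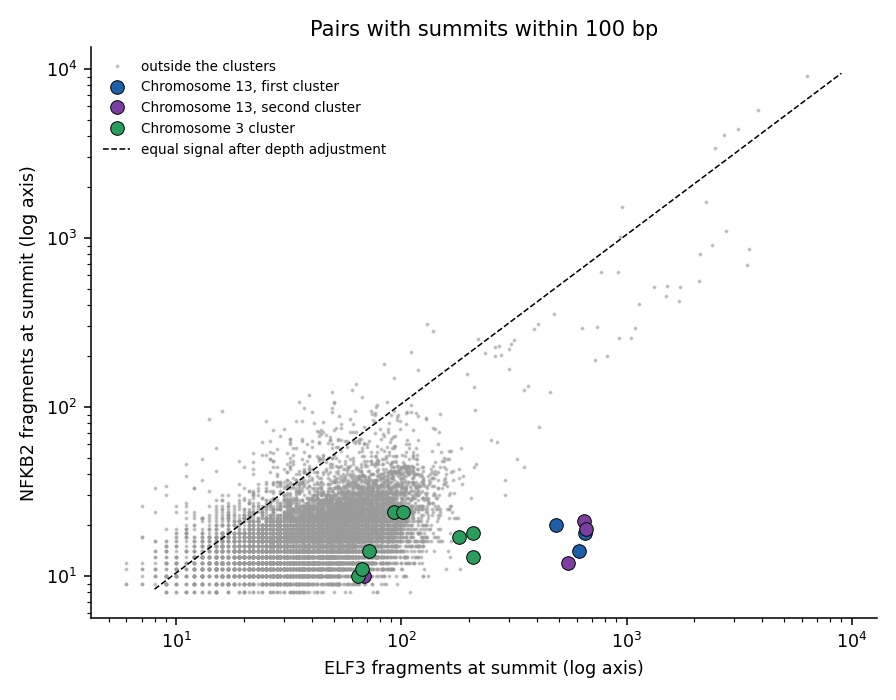
Pairs of ELF3 and NFKB2 regions with summits within 100 bp are plotted by their fragments at the summit (both axes logarithmic), with grey points for the 10370 pairs outside the clusters, coloured points for the 15 pairs of the clusters and a dashed line for equal signal after adjustment for depth. The chromosome 13 points with 486 to 657 ELF3 fragments lie at 12 to 21 NFKB2 fragments, far below the line. The chromosome 3 points, with ratios of 0.0601 to 0.247, lie within the range of the grey points (0.0579 to 5.81). All of them lie below the lower quartile of the grey points, 0.271.

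Across all 40 pairs the Spearman correlation of NFKB2 with ELF3 fragments was 0.063. Over the 13729 other pairs of the whole list, not limited to the autosomes and X, it was 0.436. The pairs share their libraries, and several NFKB2 regions share 1 ELF3 region, and 25 of the 40 join summits at different places, so both values are descriptions. In the 11 regions with NFKB2 among the 13 ELF3 regions of 200 or more fragments, the highest NFKB2 region had 12 to 21 fragments, with a median of 18. The ELF3 region of 68 fragments held an NFKB2 region of 10, and that of 171 held 2 with 28 and 31.

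ELF3 regions of like strength outside the clusters were then compared. They were taken from the rest of the autosomes and X with a background no higher than the highest in the clusters. Of ELF3 regions with 6 to 19 fragments, 0 of 35 in the clusters (0 to 10.003%) and 4.89% of 29939 outside held an NFKB2 region, and the interval of the 35 includes the share outside. With 20 to 49 fragments these were 0 of 30 (0 to 11.6%) and 22.4% of 28986, so the interval in the clusters lay below the share outside. With 50 to 99 fragments they were 6 of 16 (37.5%, 15.2 to 64.6%) and 56.8% of 8270, and the difference was within the counting interval. Of these 6, 5 lay on chromosome 3 and 1 in the second chromosome 13 cluster. With at least 100 and fewer than 200 fragments the shares were 3 of 8 (37.5%, 8.52 to 75.5%) and 80.4% of 771, with the share outside just above the interval. All 3 with NFKB2 lay on chromosome 3 (181, 171 and 102 fragments), and the chromosome 13 regions, of 100 to 173 fragments, held none. With 200 or more fragments the shares were 11 of 13 (84.6%, 54.6 to 98.1%) and 15 of 20 (50.9 to 91.3%), and these intervals overlap. Of the 11, 4 lay in the first and 5 in the second chromosome 13 cluster, and those of 207 and 208 fragments on chromosome 3. Regions of 1 cluster share a locus, so these intervals are too narrow as a measure of more than counting error.

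**Figure D4:**
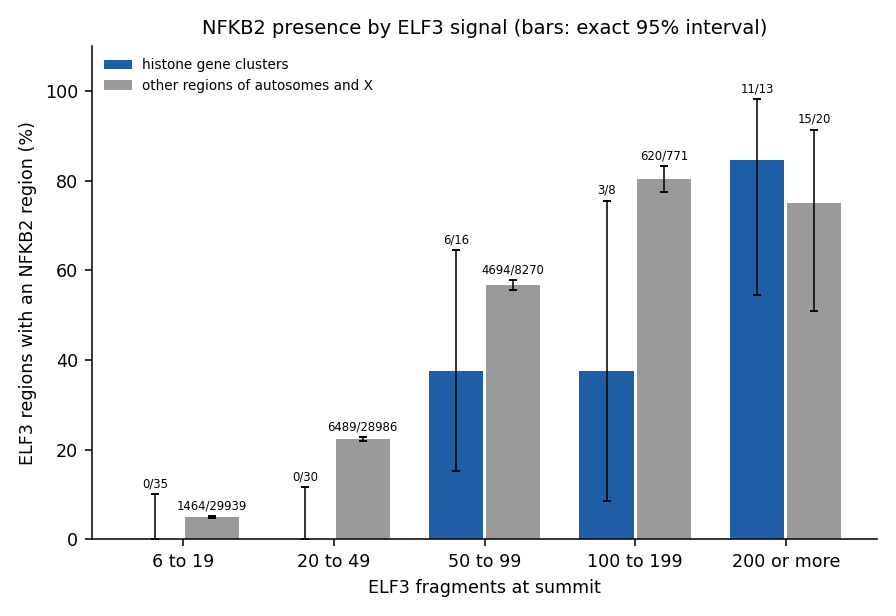
Bars give the percentage of ELF3 regions that hold an NFKB2 region (y axis) by the ELF3 fragments at the summit (x axis), in blue for the clusters and grey for the other regions of autosomes and X with a like background, with exact 95% intervals and the counts above. Blue bars stand at 0 for both classes under 50 fragments, lie below the grey bars in both classes from 50 to under 200 fragments and reach 84.6% in the highest class.

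NFKB2 signal was set side by side in the same classes. With at least 100 and fewer than 200 ELF3 fragments, the highest NFKB2 region per ELF3 region had a median of 24 fragments in the clusters (3 regions) and 26 outside (620), with median ratios of 0.174 and 0.208. Those 3 regions all lay on chromosome 3. With 200 or more ELF3 fragments, the highest NFKB2 region per ELF3 region had 12 to 21 fragments in the clusters and 29 to 309 outside (15 regions, median 122), and these ranges do not overlap. The median ratio was 0.0314 in the clusters and 0.244 outside, or 0.734 in the 5 outside regions with NFKB2 at the lowest background. The ELF3 regions of this class differ in strength, with medians of 486 fragments in the clusters and 316.5 outside, and in width, with medians of 32071 and 460.5 bp. The part of these differences was not tested.

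Shares were also compared by width. Of ELF3 regions under 1 kb, 0 of 43 in the clusters (0 to 8.22%) and 13.5% of 53930 outside held an NFKB2 region, and of those from 1 to 10 kb these were 8 of 42 (19.05%, 8.60 to 34.1%) and 42.9% of 14200. At 10 kb or more they were 12 of 17 (70.6%, 44.04 to 89.7%) and 9 of 9 (66.4 to 100%). In these 9 regions outside, NFKB2 covered 60.8% of the ELF3 length with a median ratio of 0.544. In the 17 of the clusters it covered 4.57% with a median of 0.0354. By cluster the cover was 1.74%, 4.33% and 21.8%, with median ratios of 0.0288, 0.0314 and 0.174. ELF3 had a median of 51 fragments outside (21 to 113) and 415 in the clusters (93 to 657). The highest NFKB2 region per ELF3 region had medians of 29 and 20. Width and ELF3 fragments were among the measures that chose the windows, so the widest class is a description. A low ratio in it is in part fixed by that choice.

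ELF3 cover was lower outside the windows, which is a description, since cover was among the values that chose them. In the 200 kb before and after the windows ELF3 covered 0 to 9.87%. After the last ELF3 region of the first cluster no ELF3 region was listed for 358.5 kb. Between both chromosome 13 clusters, over 1340.62 kb, 48 ELF3 regions covered 4.004% with a median of 15 fragments and a highest of 124, and NFKB2 was not listed over 1350.63 kb. Flanks of 200 kb held 0, 0, 0 and 1 NFKB2 regions on chromosome 13 and 5 and 6 on chromosome 3. The ELF3 regions nearest to the window limits on the outside, which the choice left out, were chr13:21792996-21793175 with 11 fragments and chr13:22597754-22598055 with 8 for the first window. They were chr13:23552401-23553819 with 112 and chr13:24002110-24002518 with 16 for the second, and chr3:96067104-96070385 with 67 and chr3:96536959-96537533 with 67 for chromosome 3. The outermost ELF3 regions inside had 9 and 486, 21 and 27, and 62 and 28 fragments.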

How the data were processed

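ELF3 and NFKB2 regions were called by the authors with MACS2, per the submitters' processing notes. The version, settings, aligner and the control given to the caller are not stated in the sources at hand; the design text names IgG as a control of the experiment. Each deposited list gives a score (10 times −log10 q without its decimals, in 99.98% of regions), a fold (a ratio of the signal at the summit to that of its surroundings), and −log10 p and q at the summit. The processing notes name mm10, but sequence names in the files belong to GRCm39, so coordinates are printed as deposited, counted from 1. No 2 neighbours were closer than 1001 bp for ELF3 or 1006 bp for NFKB2: nearer signal stands as 1 region with 1 summit, which makes regions wide where signal is dense.

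Fragments and background were solved from the deposited fold and −log10 p, which MACS2 derives from a Poisson model. A solution within 0.01 of −log10 p was found for 100% of ELF3 and 99.98% of NFKB2 regions. The method returned 100% of 14000 regions per library that were simulated from its own solved values with the same formula. That shows only that the solution is self-consistent. Mean fragment lengths of 121 and 129 bp followed from steps in the background. The depth ratio of 1.04 assumes that both lists used the same control, and both gave 10.2 control fragments per kb. Regions overlapped at 1 bp or more. An ELF3 region with several NFKB2 regions took that of most fragments. Shares have Clopper-Pearson and fragments Poisson intervals at 95%, ratios binomial ones. Python 3.11.15, pandas 2.3.3 and scipy 1.17.1 were used. The windows, members, lists and thresholds were chosen with earlier results of these data known. The text describes the wide and strong ELF3 regions and the NFKB2 regions of each window, not all of them by coordinates. Regions outside the clusters were first limited to the lowest background and then, after these values were seen, to the range of backgrounds in the clusters. Gene placements, gene-start distances and cell type markers were not analysed here, for want of an annotation in that build.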

Additional observations from a re-analysis of the deposited data

How the results depend on the processing

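Of 63 recomputed values of 18 results, 29 stayed within the main value's interval, or within 1.5 times a count, and 34 moved. Cover has no interval here, so any change in cover, however small, was counted as moved. Every recomputed cover value is therefore among the 34. In the order first, second and chromosome 3 cluster, ELF3 cover was 60.9%, 71.6% and 21.7% with −log10 q of 5 or more, 59.7%, 71.6% and 19.7% with 10 or more, 50.3%, 61.2% and 19.2% with windows widened by 50 kb, and 75.9%, 87.8% and 26.0% with windows narrowed to the wide ELF3 regions. NFKB2 cover was 0.336%, 1.46% and 2.37%, then 0.178%, 0.788% and 1.89%, then 0.702%, 2.40% and 2.72%, then 1.08%, 3.67% and 3.09% under the same 4 settings. NFKB2 regions fell to 4 and 11 in the chromosome 13 clusters with −log10 q of 5 or more, and to 2, 5 and 7 in the 3 clusters with 10 or more. ELF3 regions of the first cluster fell to 18 with 10 or more, and those of the second to 15 with narrowed windows. Counted by summits within 100 bp, 37.5% of NFKB2 regions lay on ELF3. Bins of the second cluster with an NFKB2 summit made up 36.4% at 10 kb, 20.5% at 5 kb and 54.5% at 20 kb. The fewer regions left by a higher limit and the lengths of the windows and bins are what these settings set.

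Both alternatives that follow were added after seeing the data. Counting NFKB2 regions inside the windows only left 19 of 102 ELF3 regions with NFKB2 (18.6%). With regions outside the clusters held to the lowest background, the shares with NFKB2 from the weakest to the strongest class were 5.30%, 23.5%, 57.4%, 80.1% and 62.5%. In the class of 200 or more that leaves 8 regions, 5 of them with NFKB2, whose median rises from 122 to 208 fragments and whose median ratio rises from 0.244 to 0.734.

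NFKB2 regions of the chromosome 13 clusters held 9 to 21 fragments and at least 8 were needed to be listed, so weaker NFKB2 signal in the rest of the ELF3 stretches was not detectable at this depth. The alternatives that needed gene starts were not run. No paired analysis was possible because each antibody has 1 library.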
